A study of Mus musculus with 12 samples.

Results

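Oxidative phosphorylation genes of the nuclear genome were followed in mouse cortex, in 12 libraries of animals labelled TAU58/2 transgenic or non-transgenic. They were taken by name, as all genes whose symbols begin with Nduf, Sdh, Uqcr, Cox4 to Cox8 or Atp5 in the form used for subunits, without names marked -ps. The rule found 82 of the 48526 genes in the tables, 37 of complex I, 4 of complex II, 8 of complex III, 16 of complex IV and 17 of complex V. It does not match Cox4i1, Cyc1, Ndufab1 and a few other subunits, which were kept as a separate list of 8. It does match Atp5s, Atp5sl and Cox7a2l, which encode related factors and not classical structural subunits. Genes were assigned to complexes by symbol only, and Atp5sl is named Dmac2 in the GENCODE annotation.

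RNA came from cortex of C57Bl/6 mice kept on a pure C57Bl/6J background, none of which was treated, with 3 animals in each of 4 groups. The groups were non-transgenic controls at 3 months, TAU58/2 mice at 3 months, non-transgenic controls at 10 months and TAU58/2 mice at 10 months. TAU58/2 mice carry human tau with the P301S mutation under a neuronal Thy1 promoter, so the transgene is made in neurons while the RNA is from whole cortex. In such bulk samples, fewer cells of a type and less RNA per cell cannot be told apart. Values are FPKM, in which fragments are scaled to transcript length and library size, and libraries are named by age, label and replicate number.

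Oxidative phosphorylation is the last stage of respiration in mitochondria. Complex I takes electrons from NADH and complex II takes them from succinate, complex III passes them on to cytochrome c, and complex IV gives them to oxygen. Complexes I, III and IV pump protons across the inner membrane, and complex V, the ATP synthase, lets them flow back to make ATP. Most of the subunits are encoded in the nucleus, and neurons depend on the pathway for the ion pumping behind synaptic signalling.

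Promoters of the group are shown because NRF1 and GABPA, also called NRF-2, are known regulators of respiratory chain genes. RefSeq promoter windows (GRCm38.p6, 250 bases before to 50 after a start) were found for 69 of the 82 genes. The NRF1 letters, GCGCA and GCGC set apart by any single base (N), stood on either strand in 17 of the 69 genes (24.6%), against 5.19% of all 27025 genes with a window. The letters CCGGAAG, which contain the GGAA core bound by GABPA, stood in 16 (23.2%) against 9.93%, and 4 genes held both motifs. The YY1 letters AAGATGGC stood in 11 (15.9%) against 3.19%, the ESRRA letters TCAAGGTCA in 2 (2.90%) against 0.466%, and TATAAA in 7 (10.1%) against 15.7%. All motifs were searched on both strands and none contains another. The windows of the group had a median GC content of 57.3%, against 52.7% for all windows, and a match of letters is not a shown binding site. Of the genes with NRF1 letters in the 250 bases before the start, the most abundant of complexes I, II, IV and V are printed here 5′ to 3′ on the gene's strand, with NRF1 and GABPA letters in capitals. They lie at chr2:36049339-36049588 for Ndufa8, chr13:74350241-74350490 for Sdha, chr5:115348959-115349208 for Cox6a1 and chr5:108434400-108434649 for Atp5k, all on the minus strand.
Ndufa8: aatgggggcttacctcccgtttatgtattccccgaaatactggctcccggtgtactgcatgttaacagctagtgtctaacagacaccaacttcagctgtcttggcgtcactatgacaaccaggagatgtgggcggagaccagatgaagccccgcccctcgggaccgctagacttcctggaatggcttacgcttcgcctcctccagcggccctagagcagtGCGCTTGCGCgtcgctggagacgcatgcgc
Sdha: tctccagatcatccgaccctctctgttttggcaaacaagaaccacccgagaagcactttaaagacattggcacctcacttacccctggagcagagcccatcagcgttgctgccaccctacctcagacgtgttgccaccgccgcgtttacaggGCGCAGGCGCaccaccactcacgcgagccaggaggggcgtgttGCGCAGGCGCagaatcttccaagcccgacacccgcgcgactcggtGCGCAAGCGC
Cox6a1: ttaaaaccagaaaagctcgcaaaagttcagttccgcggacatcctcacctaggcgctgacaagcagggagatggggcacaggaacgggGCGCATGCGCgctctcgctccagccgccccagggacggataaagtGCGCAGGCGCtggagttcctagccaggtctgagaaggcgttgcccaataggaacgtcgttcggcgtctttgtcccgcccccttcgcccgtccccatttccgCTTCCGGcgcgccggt
Atp5k: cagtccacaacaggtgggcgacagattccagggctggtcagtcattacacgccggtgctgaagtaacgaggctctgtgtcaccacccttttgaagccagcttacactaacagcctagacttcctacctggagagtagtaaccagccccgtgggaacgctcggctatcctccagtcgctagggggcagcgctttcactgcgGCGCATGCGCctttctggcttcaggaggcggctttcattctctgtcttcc
The Sdha promoter held 3 NRF1 matches, that of Cox6a1 held 2 with 1 GABPA match just before the start, and those of Ndufa8 and Atp5k held 1 each.

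Over the whole series, FPKM totals per library ran from 125933 to 158077, with 12828 to 13914 genes above 0. Absolute depth is unknown. The cortex label was read beside 5 excitatory neuron markers. Camk2a was between 92.3 and 443 FPKM and Slc17a7 between 98.2 and 233 FPKM in the 12 libraries. The median log2 ratio of the 5 to their own medians was -3.09 in 10-month transgenic 3 and -1.02 in 3-month control 3. The 4 choroid plexus markers summed to 729 FPKM in 3-month control 1, 303 in 3-month transgenic 3 and 439 in 10-month transgenic 1. In the rest they summed to between 5.24 and 63.5 FPKM. The pituitary hormone genes Gh and Prl reached 11228 and 1482 FPKM in the 10-month transgenic 1 library. Mapt and Thy1, under which transgene fragments can be counted, followed the labels at 3 months only. At 3 months the control label went with 6.64, 12.0 and 7.47 FPKM of Mapt and the transgenic label with 47.6, 47.5 and 43.3 FPKM. At 10 months the control label went with 42.7, 8.13 and 9.08 FPKM of Mapt and the transgenic label with 42.6, 12.4 and 3.31 FPKM. By Mapt the 10-month control 1, transgenic 2 and transgenic 3 libraries went against their labels. Thy1 did not single out the same libraries, since at 10 months it was at 115, 314 and 176 FPKM under the control label and at 172, 114 and 159 FPKM under the transgenic label. Each 10-month comparison rests on the labels alone, and where these 3 libraries were left out they were picked by Mapt only. Each age has its own deposited table, so age and table cannot be told apart.

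The nuclear subunit genes were among the abundant messages of the cortex. Together they took 4148 to 6961 FPKM of a library, or 3.04% to 4.49% of its total. By mean over the 12 libraries, 12 genes were at 100 FPKM or more, 58 between 10 and 100, 5 between 1 and 10, 4 above 0 and under 1, and 3 were listed at 0 in every library. Complex IV genes made up 34.8% of the summed mean level, complex I 32.5%, complex V 21.0%, complex III 8.18% and complex II 3.56%. The group sums were 4976 ± 733 FPKM in 3-month control libraries, 4994 ± 448 in 3-month libraries labelled transgenic, 5260 ± 1210.2 in 10-month control libraries and 5428 ± 1363 in 10-month libraries labelled transgenic (SD, n = 3). The 4 means lie within the spread of the replicates. The order of the genes by level was much alike across libraries, with a Spearman rho across 75 genes between 0.683 and 0.926 for pairs of libraries (median 0.817 within groups and 0.832 between groups). These genes share libraries and are not independent replicates.

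**Figure D1:**
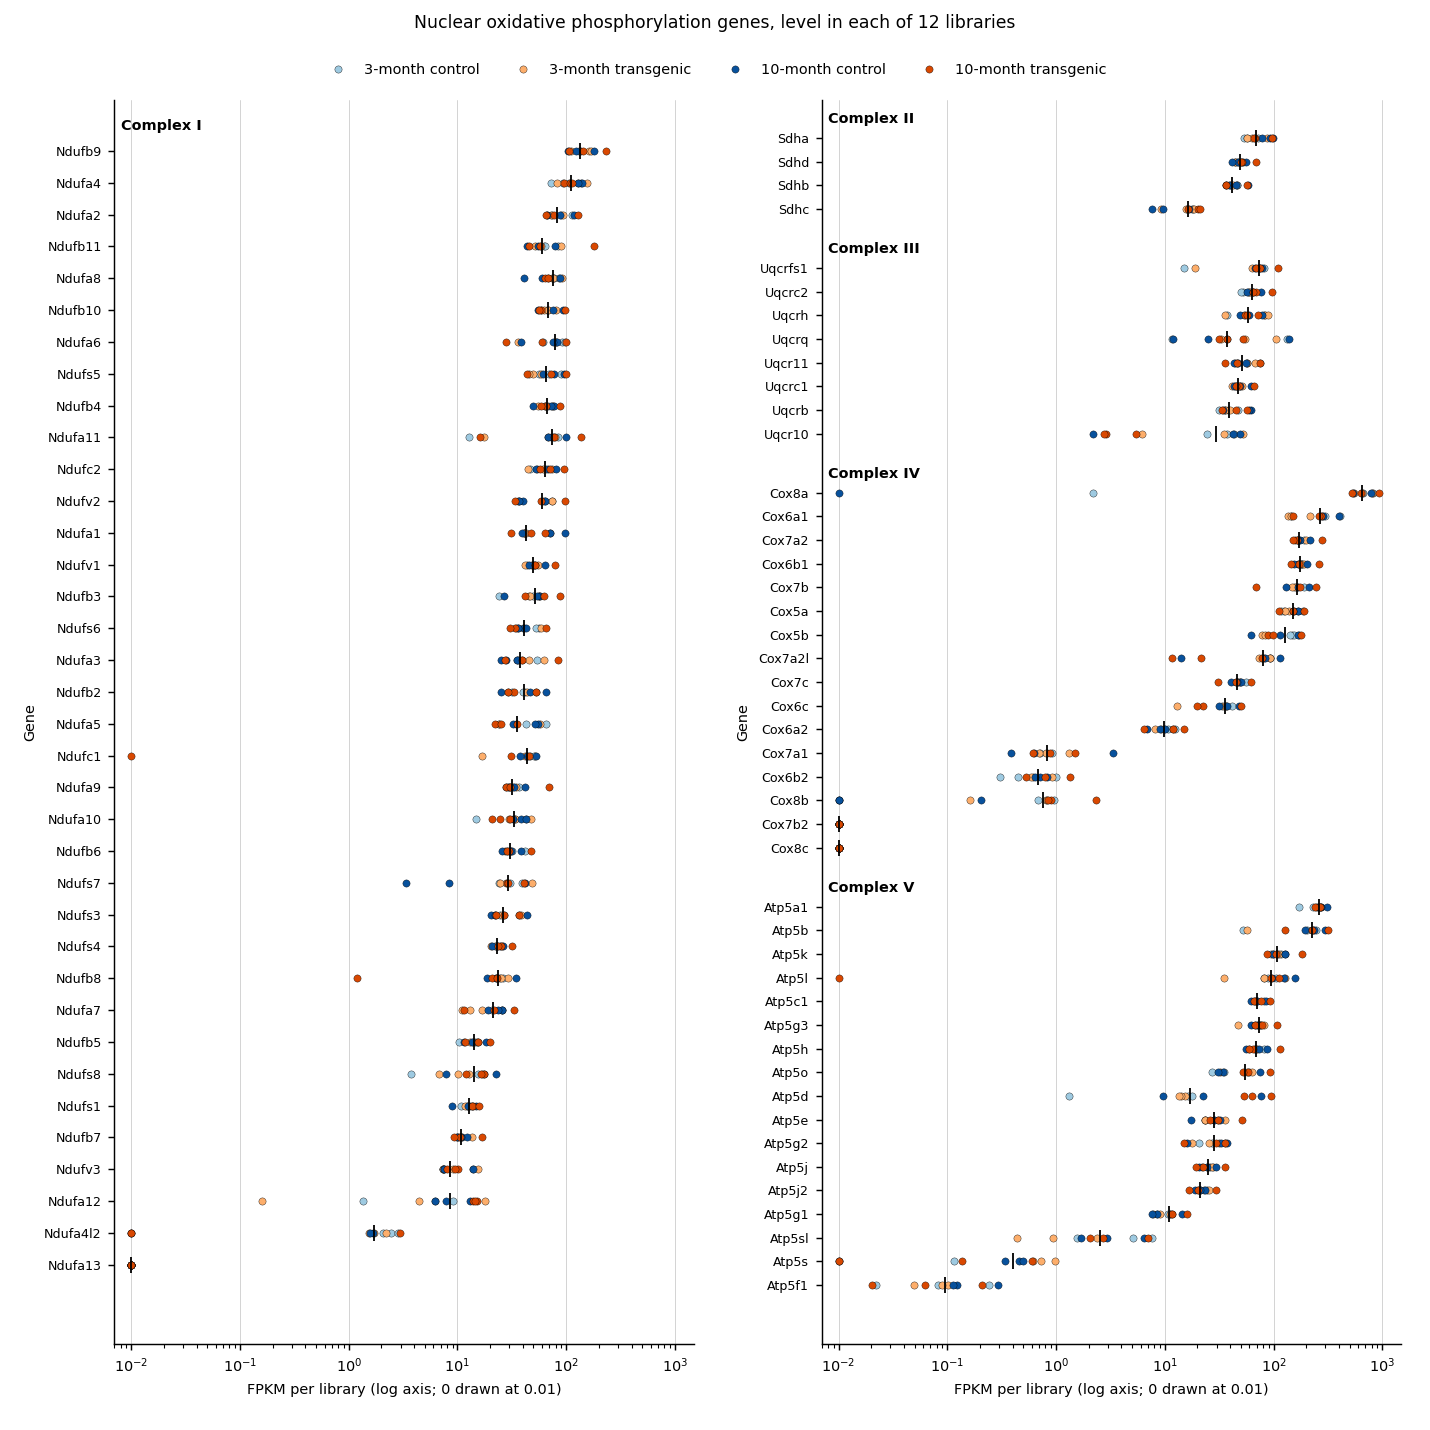
Level of nuclear subunit genes in the 12 libraries (FPKM on a log axis, 0 drawn at 0.01), by complex and in order of the mean. Points are libraries coloured by group and the tick is the median; most genes spread little, while Cox8a, Atp5l and Ndufc1 each have a point at 0.

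A limma model over the 12 libraries compared the groups, and 76 of the 82 genes passed its filter of 1 FPKM or more for the mean of any group. The other 6 were Atp5f1, Atp5s, Cox6b2, Cox7b2, Cox8c and Ndufa13. Cox8b and Cox7a1 passed the filter through 1 group only, so their presence among the genes tested depends on the group where they were highest. None of the 76 passed an adjusted p of 0.05 in any of 5 comparisons by limma with Benjamini-Hochberg adjustment over 9846 genes. Across all genes tested, 0.0102% were called for genotype at 10 months, 0.0406% for genotype at 3 months, 0.0508% for the age by genotype interaction, 0.0305% for age in control libraries and 0.0203% for age in libraries labelled transgenic. At an unadjusted p under 0.05 there were 2 of the 76 genes (2.63%) in each comparison. Over all genes tested the shares were 4.4%, 3.39%, 3.32%, 4.19% and 4.31% in the same order. They were Cox8b and Sdhc for genotype at 10 months, Ndufa7 and Atp5sl at 3 months, Sdhc and Ndufa4 for the interaction, Ndufa4 and Sdha for age in control libraries, and Atp5d and Uqcr10 for age in libraries labelled transgenic. In the authors' deposited table, 79 of the genes had p-values at each age. Of these, 3 at 10 months and 2 at 3 months had p under 0.05, and 0 had q under 0.05. Atp5s, which did not pass the filter used here, is counted at both ages. The share over all genes was not computed for that table, so these counts have nothing to be set against. The smallest q in the authors' deposited table was 0.819 at 10 months and 0.904 at 3 months.

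As a group the differences were small. At 10 months 45 of the 76 genes were higher in the libraries labelled transgenic (59.2%, against 50.9% of all genes tested), and the median log2 difference was 0.04, against 0.01 for all genes. At 3 months 33 were higher (43.4% against 52.1%) with a median of -0.02, against 0.02 for all genes. With age, 40 were higher in control libraries (52.6% against 56%; median 0.02, all genes 0.06) and 52 in libraries labelled transgenic (68.4% against 54.1%; median 0.12, all genes 0.05). The interaction, the 10-month minus the 3-month genotype difference, was positive for 52 genes (68.4% against 48.9%; median 0.10, all genes -0.02). These comparisons share libraries and are not independent of each other. Without the 10-month transgenic 3 library the median turned to -0.16 for genotype at 10 months, to -0.13 for the interaction and to -0.14 for age in the libraries labelled transgenic. Without the 10-month control 3 library the interaction median was -0.02, and without the 10-month control 1 library the median for age in control libraries was -0.11. The sign of these medians thus changed when a single library was left out. With every library rescaled to a common total, the 10-month genotype median was -0.03, while that of all genes moved to -0.05. Without the 3 libraries picked by Mapt, the 10-month genotype median was 0.08 over 74 genes, against 0.09 for all genes, with 0 of the 74 called and a single library left in the group labelled transgenic.

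**Figure D2:**
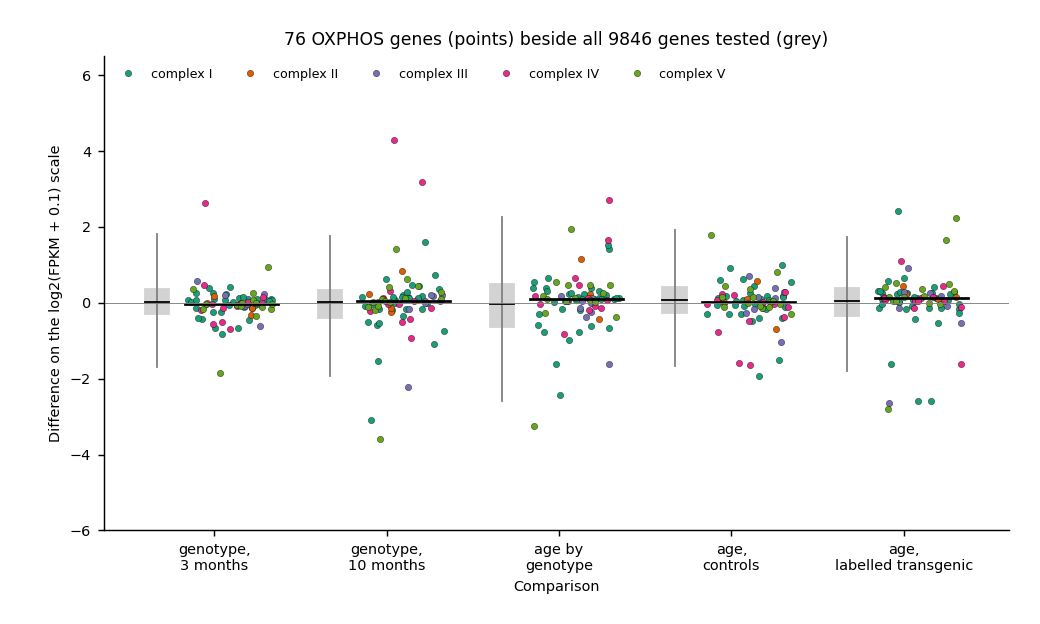
Differences on the log2(FPKM + 0.1) scale for the 76 genes tested (points, coloured by complex, long line at the median) in 5 comparisons. The grey box and line give the middle 50% and 90% of all 9846 genes tested; the medians of the subunit genes lie between -0.02 and 0.12.

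Shifts between single libraries were larger than these group medians. The 10-month transgenic 3 library held the highest value of 46 of the 76 genes (60.5%), while 33.7% of the other genes averaging 10 FPKM or more had their highest value there. The 10-month control 1 library held the highest value of 16 (21.1%, other genes 13.6%). A gene of the group stood at a median of 1.44 times its own median over the 12 libraries in the 10-month transgenic 3 library and 1.26 times in the 10-month control 1 library. The lowest such ratios were 0.860 in the 10-month transgenic 2 library and 0.876 in the 10-month control 3 library. Each 10-month group thus held both a high and a low library, and the ratios of the 3-month libraries lay between 0.936 and 1.07. Complexes I, III, IV and V shared the high level in the 10-month transgenic 3 library, with median log2 ratios of 0.55, 0.52, 0.53 and 0.54. The median of the 4 complex II genes was 0.23, but these were split. Sdhb and Sdhd stood at 0.48 and 0.50 there, and Sdha and Sdhc at -0.06 and -0.01.

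Subunit genes have short transcripts, and other genes with short transcripts moved with the same libraries. The longest coding transcript had a median of 870 bases in the group, with 58.5% under 1000 bases, against 2554 bases and 8.30% for the other coding genes averaging 10 FPKM or more. In the 10-month transgenic 3 library the 209 other genes under 1000 bases stood at a median log2 ratio of 0.55, the 1298 genes from 1000 to under 3000 bases at 0.31 and the 1012 genes of 3000 bases or more at -0.07. In the 10-month control 1 library the values were 0.23, 0.17 and 0.03, and in the 10-month transgenic 2 library -0.25, -0.10 and 0.03. The subunit genes stood at 0.57 in the 10-month transgenic 3 library where the transcript was under 1000 bases (45 genes) and at 0.48 where it was longer (31 genes). In the 10-month control 1 library they stood at 0.29 and 0.38. The part of transcript length in these library differences was not tested.

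**Figure D3:**
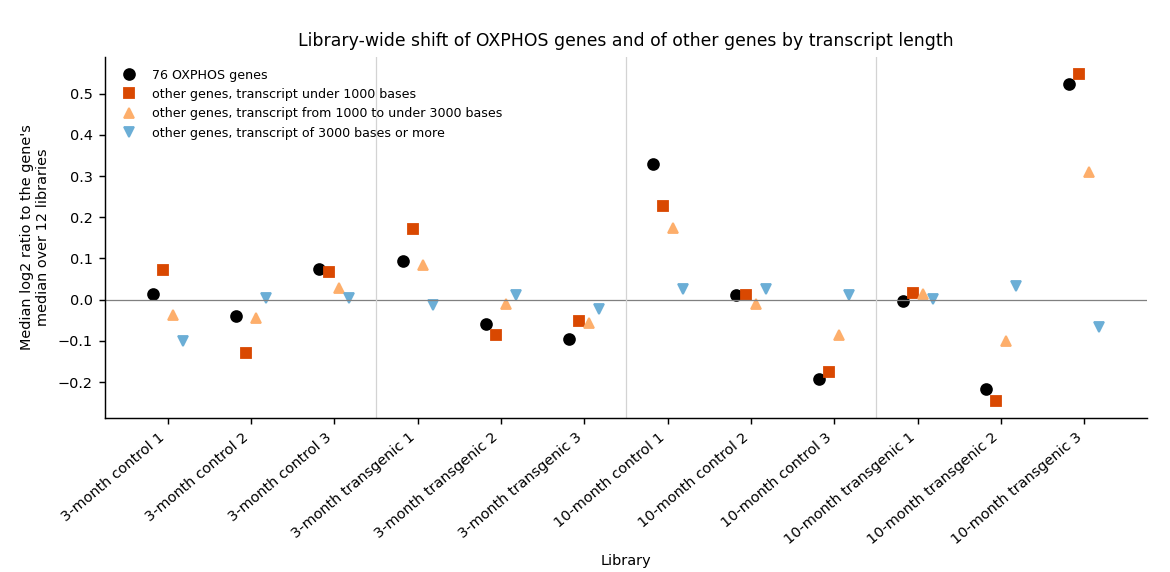
Median log2 ratio of each set of genes to their own medians over 12 libraries, by library. Circles are the 76 subunit genes and the other symbols are other genes averaging 10 FPKM or more, by transcript length; circles and squares (under 1000 bases) are highest in the 10-month transgenic 3 library, at 0.52 and 0.55.

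**Figure D4:**
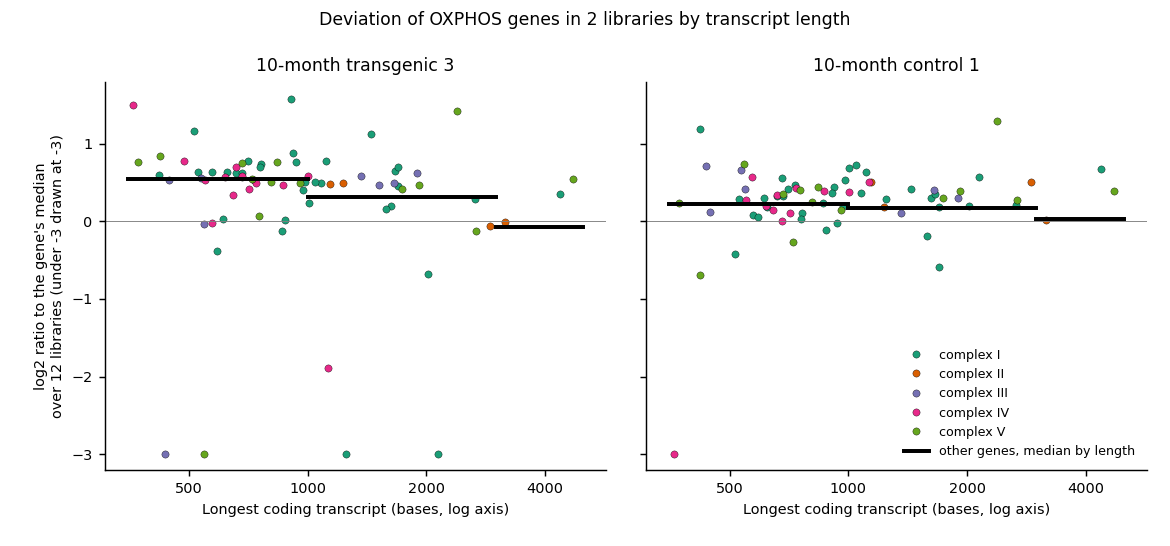
Log2 ratio of each subunit gene to its median over 12 libraries against the length of its longest coding transcript (log axis), in the 10-month transgenic 3 and 10-month control 1 libraries. Black lines are medians of other genes in 3 length classes; most points lie above 0 in both libraries, and 4 genes lie at -3 or below in the first.

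Cell type markers moved in part with these libraries. The summed level of 5 oligodendrocyte markers was 533 FPKM in the 10-month transgenic 3 library, and lay between 213 and 413 FPKM in the other 11. The summed level of 5 excitatory neuron markers was 462 FPKM there, with Tbr1 at 1.57 and Neurod6 at 2.28 FPKM. At 3 months these sums ranged from 215 to 689 FPKM in control and 555 to 705 in transgenic libraries. At 10 months they ranged from 577 to 656 FPKM in control and 462 to 563 in transgenic libraries, without overlap. The summed level of 5 astrocyte markers was 125 to 272 FPKM in 10-month control and 65.95 to 114 FPKM in 10-month transgenic libraries, without overlap. That of 5 inhibitory neuron markers was 81.1 to 386 and 401 to 527 FPKM in the same groups, also without overlap. These sums follow the most abundant markers. Taken singly, 2 of the 5 astrocyte markers were higher and 3 lower at 10 months, and 1 did not overlap. Of the 5 inhibitory neuron markers 3 were higher and 2 lower, and 1 did not overlap. That is 20% of each list, against 8.26% of all genes tested. The 5 excitatory neuron markers were all lower at 10 months (median log2 difference -0.43), and each overlapped. The 5 oligodendrocyte markers were all higher (median 0.25), and 1 (20%) did not overlap. Of all genes tested 50.9% were higher. At 3 months the 5 blood markers summed to 14.9 to 25.1 FPKM in control and 35.4 to 142 FPKM in transgenic libraries. Of the 4 tested, 3 (75%) were higher at an unadjusted p under 0.05, against 3.39% of all genes called in either direction. At 10 months 0 of the 4 passed it, against 4.4% of all genes. The part of these markers in the level of the subunit genes was not tested. In the 10-month transgenic 1 library, where 5 of 5 pituitary markers were above 0 and summed to 13416 FPKM, the subunit genes stood at 0.997 times their medians. Acta1, Ckm and Myh4 of skeletal muscle were listed at 0 in all 12 libraries.

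Complex I, the NADH dehydrogenase, has 7 nuclear core subunits that carry its flavin and iron-sulfur centres, and many accessory subunits around them. Of the core, Ndufv1, which holds the flavin and the NADH site, was at 49.1, 43.6 and 48.1 FPKM in 3-month control and 55.1, 48.8 and 41.9 in 3-month transgenic libraries. It was at 63.7, 50.6 and 45.7 in 10-month control and 51.2, 51.5 and 78.1 in 10-month transgenic libraries. The groups overlapped. Over the 76 genes the median SD within groups was 0.40 on the log2 scale, against 0.43 for all tested genes averaging 10 FPKM or more. The 7 core genes all had positive differences at 10 months (median 0.16), against 50.9% of all genes tested. At 3 months 2 of 7 were positive (median -0.03), against 52.1% of all genes tested. At an unadjusted p under 0.05 there were 0 at either age (all genes 4.4% and 3.39%). In the 10-month transgenic 3 library the core genes stood at a median log2 ratio of 0.50, but at 0.04 and -0.03 in transgenic 1 and 2. In the 10-month control libraries they stood at 0.35, 0.004 and -0.24.

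Ndufb9, an accessory subunit of the membrane arm, was the most abundant gene named for complex I. It was at 135, 133 and 132 FPKM in 3-month control, 161, 109.7 and 169 in 3-month transgenic, 180.2, 123 and 103 in 10-month control, and 142, 106 and 229.9 in 10-month transgenic libraries. The groups overlapped, and the highest value was again in the 10-month transgenic 3 library. Ndufa4, now regarded as a subunit of complex IV despite its name, was at 92.5, 73.0 and 104.9 FPKM in 3-month control libraries and at 154, 129 and 82.8 FPKM in 3-month transgenic libraries. At 10 months it was at 136, 139.6 and 129.6 FPKM in control and 94.5, 108 and 114 FPKM in transgenic libraries. All 10-month control values were above those of both 3-month control and 10-month transgenic libraries. Age in control libraries gave a log2 difference of 0.60 (SE 0.23, limma adjusted p = 0.994), that for genotype at 10 months -0.36 (SE 0.23, limma adjusted p = 0.969), and the interaction -0.77 (SE 0.32, limma adjusted p = 0.987). Its paralog Ndufa4l2, known to be induced by hypoxia, was at 2.47, 2.84 and 2.07 FPKM in 3-month control libraries and 1.68, 0 and 1.56 in 10-month control libraries. Ndufa4l2 made up a median of 1.32% of the summed level of the pair.

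Ndufa7, an accessory subunit, was at 25.4, 25.4 and 20.6 FPKM in 3-month control and 16.7, 13.1 and 11.1 FPKM in 3-month transgenic libraries. These groups did not overlap, with a log2 difference of -0.82 (SE 0.34, limma adjusted p = 1). At 10 months Ndufa7 was at 25.8, 23.4 and 19.1 FPKM in control and 21.6, 11.5 and 32.8 FPKM in transgenic libraries, which overlapped. Ndufb6 and Ndufc1 were also lower without overlap at 3 months, and Uqcrc2 of complex III was higher, so that 4 of 76 genes (5.26%) did not overlap, against 7.98% of all genes tested. At 10 months 5 of 76 (6.58%, all genes 8.26%) did not overlap, Ndufa12 and Cox8b higher and Ndufa10, Ndufa4 and Cox6a1 lower. Cox8b is counted here though it passed the filter only through the 10-month transgenic group. Ndufa13, an accessory subunit also known as GRIM-19, was listed at 0 in all 12 libraries. Yjefn3, a gene on the same strand, overlaps it over 8379 bases and was listed at 0.179 to 1.97 FPKM. A listed 0 may be a failed estimate, so it does not show that Ndufa13 is silent.

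Complex II, succinate dehydrogenase, is the only complex of the chain with no mitochondrially encoded subunit, and it is also an enzyme of the TCA cycle. Sdha, its flavoprotein, was at 54.0, 71.3 and 57.0 FPKM in 3-month control libraries and 98.6, 93.7 and 78.2 FPKM in 10-month control libraries. These did not overlap, with a log2 difference of 0.57 (SE 0.22, limma adjusted p = 0.994). In libraries labelled transgenic Sdha was at 63.3, 86.8 and 56.8 FPKM at 3 months and at 67.3, 96.5 and 66.6 FPKM at 10 months, which overlapped. Sdhc, a membrane anchor, was at 15.9, 18.0 and 18.3 FPKM in 3-month control and 18.5, 9.30 and 15.8 FPKM in 3-month transgenic libraries. At 10 months Sdhc was at 16.6, 7.67 and 9.56 FPKM in control and 20.2, 21.2 and 16.3 FPKM in transgenic libraries. The 10-month groups overlapped narrowly, with a log2 difference of 0.83 (SE 0.32, limma adjusted p = 0.969) and an interaction of 1.15 (SE 0.45, limma adjusted p = 0.987). Without the 3 libraries picked by Mapt, the 10-month difference of Sdhc was 1.23. Sdhb, the iron-sulfur subunit, ranged from 36.3 to 58.8 FPKM and Sdhd, the other anchor, from 41.9 to 69.3 FPKM. With age, 3 of 76 genes (3.95%, all genes 10.1%) did not overlap in control libraries, Ndufa4 and Sdha higher and Ndufa4l2 lower.

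Complex III, the cytochrome bc1 complex, was led by Uqcrfs1, the Rieske iron-sulfur protein. Uqcrfs1 was at 14.9, 74.2 and 81.9 FPKM in 3-month control, 19.1, 72.3 and 63.9 in 3-month transgenic, 78.8, 75.0 and 68.1 in 10-month control, and 75.5, 69.7 and 110.4 in 10-month transgenic libraries. It was low in a single library of each 3-month group. Uqcrc2, a core protein, was at 52.9, 50.4 and 58.1 FPKM in 3-month control, 61.2, 64.4 and 59.2 in 3-month transgenic, 77.3, 56.7 and 64.5 in 10-month control, and 68.5, 64.7 and 96.8 in 10-month transgenic libraries. Its 3-month groups did not overlap, with a log2 difference of 0.20 (SE 0.19, limma adjusted p = 1). Uqcr10, a small subunit of complex III, was at 24.7, 37.7 and 43.5 FPKM in 3-month control and 52.7, 34.9 and 6.22 FPKM in 3-month transgenic libraries. At 10 months it was at 49.1, 2.19 and 42.5 FPKM in control and 5.43, 2.86 and 2.76 FPKM in transgenic libraries. All 3 libraries labelled transgenic were low at 10 months, but so was the 10-month control 2 library. The log2 difference was -2.65 with age in libraries labelled transgenic (SE 1.13, limma adjusted p = 0.974) and -2.23 for genotype at 10 months (SE 1.13, limma adjusted p = 0.969).

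Complex IV, cytochrome c oxidase, is where several subunits exist as tissue isoforms. Cox8a, the isoform found in most tissues, had the highest mean of the group (chromosome 19, 7215153 to 7217616, minus strand, GRCm38). It was at 829, 2.17 and 661 FPKM in 3-month control, 813, 552 and 652 in 3-month transgenic, 779.9, 0 and 539.5 in 10-month control, and 638, 529 and 932 in 10-month transgenic libraries. In 10 libraries Cox8a was thus between 529 and 932 FPKM, while the 3-month control 2 library had 2.17 and the 10-month control 2 library was listed at 0. The log2 difference of 4.29 at 10 months (SE 3.21, limma adjusted p = 0.969) and of 2.63 at 3 months (SE 3.21, limma adjusted p = 1) rested on these values. With values under an eighth of a gene's median set to missing they were 0.07 (SE 0.33) and -0.16 (SE 0.33). Its muscle isoform Cox8b was at 0.689, 0 and 0.949 FPKM in 3-month control, 0.163, 0.814 and 0.832 in 3-month transgenic, 0, 0.206 and 0 in 10-month control, and 0.896, 0.840 and 2.31 in 10-month transgenic libraries. The 10-month groups did not overlap, with a log2 difference of 3.18 (SE 1.04, limma adjusted p = 0.969), at levels at or below 1 FPKM in 11 of 12 libraries. Cox8b passed the filter only through the 10-month transgenic group, with a mean of 1.35 FPKM, so this difference is not independent of the filter. The size of the difference depended on the pseudocount, at 1.09 with 1 and 5.45 with 0.01.

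Cox6a1, the liver isoform that is also used in brain, was at 408, 298 and 146 FPKM in 3-month control and 215, 137 and 146 in 3-month transgenic libraries. At 10 months it was at 398, 277 and 287 FPKM in control and 152, 270.5 and 264 FPKM in transgenic libraries, without overlap. The log2 difference at 10 months was -0.51 (SE 0.38, limma adjusted p = 0.969). Within paralog sets the ubiquitous isoform dominated. Cox6a1 made up a median of 96.5% of the sum with the muscle isoform Cox6a2, and Cox6b1 made up 99.6% of the sum with Cox6b2, which is known from testis. Cox7a2 made up a median of 67.6%, the supercomplex factor Cox7a2l 32.2% and the muscle isoform Cox7a1 0.328% of their sum. Cox7a2l lay outside this proportion in some libraries, at 14.0 FPKM in 10-month control 3, 11.7 in 10-month transgenic 1 and 21.6 in 10-month transgenic 3, against 73.5 to 113.7 FPKM in the other 9. Cox7b2 and Cox8c, both known from testis, were listed at 0 in every library.

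**Figure D5:**
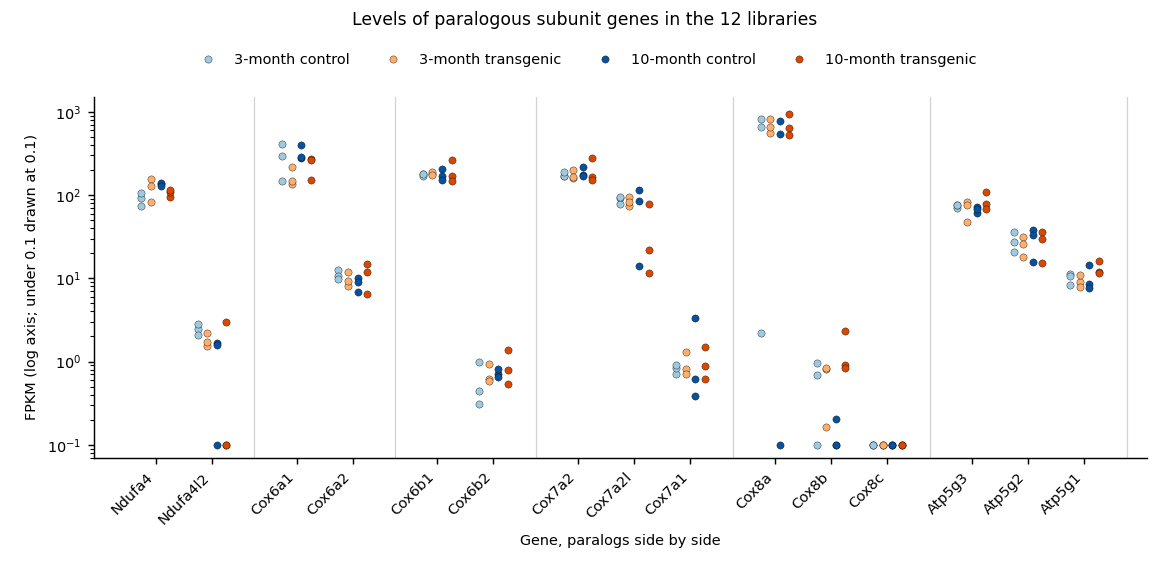
FPKM (log axis, values under 0.1 drawn at 0.1) of paralogous subunit genes in the 12 libraries, coloured by group. By median share a single paralog leads each set. Cox8a is between 529 and 932 FPKM in 10 libraries and at 2.17 and 0 in the 2 others. In the 10-month control 2 library Cox8a is at 0 and Cox8b at 0.206 FPKM.

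Complex V, the ATP synthase, was led by the genes of its catalytic head. Atp5a1, the alpha subunit, was at 170.2, 259.9 and 229 FPKM in 3-month control, 273, 259 and 244 in 3-month transgenic, 313, 275 and 254 in 10-month control, and 269, 265 and 238 in 10-month transgenic libraries. Atp5b, the catalytic beta subunit, was at 204, 52.2 and 245 in 3-month control, 228, 232 and 57.5 in 3-month transgenic, 298, 237 and 194 in 10-month control, and 226, 128 and 316 in 10-month transgenic libraries. The groups overlapped for both. Atp5d, the delta subunit of the central stalk, was at 16.5, 18.0 and 1.32 FPKM in 3-month control and 15.3, 14.2 and 13.7 in 3-month transgenic libraries. At 10 months it was at 77.1, 9.69 and 22.4 FPKM in control and 63.2, 53.8 and 94.2 FPKM in transgenic libraries. All 10-month transgenic values were above all 3-month transgenic values, with a log2 difference of 2.24 (SE 0.96, limma adjusted p = 0.974), while the 10-month control 1 library was as high. In libraries labelled transgenic 8 of 76 genes (10.5%, all genes 9.43%) did not overlap with age, Ndufs1, Uqcrc2, Cox8b, Atp5d and Atp5g1 higher and Ndufa8, Ndufb8 and Uqcr10 lower. This count too includes Cox8b, which passed the filter only through the 10-month transgenic group.

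The membrane ring of complex V is made of subunit c, encoded by 3 genes with the same mature protein. Atp5g3 made up a median of 67.0%, Atp5g2 24.4% and Atp5g1 9.66% of their summed level. Atp5g1 ranged from 7.78 to 11.1 FPKM in 3-month transgenic and from 11.7 to 16.1 FPKM in 10-month transgenic libraries, and in control libraries from 8.42 to 11.1 and from 7.57 to 14.4 FPKM. Of the 31-base words of Atp5g2, 40.2% also occur in other genes, so its level is uncertain. Atp5l, subunit g of the membrane part, was at 89.2, 82.2 and 105.7 FPKM in 3-month control, 35.3, 81.5 and 128 in 3-month transgenic, 159, 96.2 and 124 in 10-month control, and 95.01, 112 and 0 in 10-month transgenic libraries. It was listed at 0 in the 10-month transgenic 3 library, where most of the group was highest. Atp5sl, or Dmac2, is placed with complex V by its symbol only and is not a structural subunit of it. At 3 months it was at 5.09, 7.66 and 1.56 FPKM in control and 2.41, 0.438 and 0.947 FPKM in transgenic libraries. These groups overlapped (log2 difference -1.85, SE 0.79, limma adjusted p = 1). Atp5f1, subunit b, was at 0.0204 to 0.293 FPKM in the 12 libraries. Of its 31-base words 10.9% also occur in other genes. Its level is uncertain, and whether such low values reflect the amount of its message was not tested.

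Single values far below the rest recurred in the group. Of 72 subunit genes whose median reached 5 FPKM, 8 (11.1%) had 11 values under an eighth of the median, 3 of them listed at 0, against 17.1% of 4318 other genes. The 10-month transgenic 3 library held 4 of them, Atp5l and Ndufc1 at 0, Ndufb8 at 1.19 FPKM (18.6 to 34.8 FPKM in the other 11) and Uqcr10. Ndufc1, a small accessory subunit of complex I, was between 16.9 and 53.0 FPKM in the other 11 libraries. Ndufa12 was at 0.158 FPKM in the 3-month transgenic 2 library, and Ndufs7, a core subunit, at 3.36 FPKM in the 10-month control 3 library. The median SD within groups was 0.39 for 31 genes with under 1% of their 31-base words in another gene, 0.45 for 24 genes with 1 to 10% and 0.40 for 21 genes with more.

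Genes around the pathway were described from lists. The 8 subunit genes outside the name rule, among them Cox4i1 of complex IV and Cyc1 of complex III, had positive differences in 8 of 8 at 10 months (median 0.26; 50.9% of all genes) and in 3 of 8 at 3 months (median -0.07; 52.1% of all genes), with 0 at an unadjusted p under 0.05. Their median log2 ratio to their own medians over the 12 libraries was 0.50 in the 10-month transgenic 3 library but -0.04 and -0.32 in transgenic 1 and 2, and it was 0.23, -0.18 and -0.40 in the 10-month control libraries. Cox4i1 was at 271, 173 and 154 FPKM in 10-month control and 213, 159 and 279.7 FPKM in 10-month transgenic libraries. Enzymes of the TCA cycle, which feeds the chain with NADH and succinate, were higher in 3 of 13 at 10 months (median -0.17) and in 9 of 13 at 3 months (0.11). Of all genes tested 50.9% and 52.1% were higher. With age these enzymes were higher in 12 of 13 in control libraries (0.18) and in 6 of 13 in libraries labelled transgenic. Of all genes tested 56% and 54.1% were higher with age. The median log2 ratios of the enzymes were -0.15, 0.01 and -0.03 in 3-month control and 0.29, 0.11 and -0.13 in 10-month control libraries. Dld, the dihydrolipoamide dehydrogenase, was at 42.3, 41.7 and 35.1 FPKM in 10-month control and 26.7, 27.7 and 31.4 in 10-month transgenic libraries without overlap (log2 difference -0.47, SE 0.19, limma adjusted p = 0.969). No TCA cycle gene passed the adjusted threshold in any comparison.

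Assembly factors, which build the complexes without staying in them, were higher at 10 months in 7 of 12 for complex I, 6 of 8 for complexes II and III, 12 of 18 for complex IV and 1 of 3 for complex V. Of all genes tested 50.9% were higher at 10 months. No assembly factor passed the adjusted threshold by limma in any comparison. At an unadjusted p under 0.05 there were 1 in the 10-month and 2 in the 3-month genotype comparison, all of complex IV. Of the 18 complex IV factors tested these were 5.56% and 11.1%, against 4.4% and 3.39% of all genes. Coa3, an assembly factor for Cox1, had a log2 difference of 1.70 at 10 months (SE 0.48, limma adjusted p = 0.969) and of 1.83 at 3 months (SE 0.48, limma adjusted p = 0.914). It was at 34.1, 14.7 and 10.3 FPKM in 3-month control and 73.7, 57.5 and 55.5 FPKM in 3-month transgenic libraries. At 10 months Coa3 was at 13.9, 12.1 and 8.77 FPKM in control and 56.2, 47.6 and 19.2 FPKM in transgenic libraries, so that its groups did not overlap at either age. Cox19 had a difference of 2.03 at 3 months (SE 0.72, limma adjusted p = 1). Of 11 regulators of mitochondrial biogenesis 6 passed the filter, and 0 of these passed an unadjusted p of 0.05 in any comparison. Nrf1 was listed at 0 to 0.967 FPKM and Gabpa at 0 to 2.74 FPKM, where a listed 0 may be a failed estimate, and Esrra was at 13.1 to 19.6 FPKM. Of the 13 mitochondrially encoded subunits, 11 were listed at 0 in all 12 libraries, and mt-Nd1 and mt-Nd5 had values that ranged from 0 to 5577 and from 0 to 1924 FPKM, so that nuclear and mitochondrial subunits could not be compared.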

How the data were processed

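Cortex RNA of 12 mice was measured by RNA-seq of ribosome-depleted, strand-specific libraries, per the labels' protocols. The authors deposited FPKM per gene and library in a table for each age, beside their own fold changes (a ratio), log2 values of it, p-values and q-values, whose test is not given in the sources used here. HISAT2 2.0.4, StringTie 1.3.0 and R 3.4.2 were named per the submitters' processing notes. Groups came from the sample labels.

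FPKM were analysed as log2(FPKM + 0.1) in limma 3.58.1 (R 4.3.3; a mean per group, eBayes with trend and robust), with all 12 libraries in the fit. Tested were the 9846 genes whose mean reached 1 FPKM in any group, with Benjamini-Hochberg adjustment over all of them. The pseudocount understates changes of low genes. The fit was tested on simulated data with independent normal noise and changes planted only in genes of low spread. That test does not show how often changes in noisier genes, or beside library-wide shifts, would be found. P-values set a difference between groups against the spread of animals within groups, pooled over the 4 groups and moderated across genes. Genes were placed, and shared 31-base words counted, with the GENCODE annotation of GRCm38. Transcript lengths are those of the longest coding transcript.

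The members, the 20 gene lists and the comparisons were chosen with earlier results of these data known. Named were, by rule, the 2 highest genes per complex, up to 3 per direction and comparison with the smallest p under 0.05, the paralog sets, genes listed at 0 in a library whose median reached 5 FPKM, and list genes with p under 0.05. Other genes, such as Ndufv1, Cox7a2l, Cox4i1 and those counted as not overlapping, were named after their values were seen. Values of some single genes are not reported here. Depth is unknown in absolute terms; steps in the low values of 5.87% to 8.96% of low genes put the libraries at 1.07 to 1.37 times the depth of the 10-month control 1 library, and reads were not recovered. Alternatives were other pseudocounts, filters and scalings, the replicate number as a block, each age alone and each library left out. Setting far-low values to missing and leaving out the 3 libraries whose Mapt went against the label were added after the data were seen.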

Additional observations from a re-analysis of the deposited data

How the results depend on the processing

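No subunit gene passed the adjusted threshold by limma under any alternative run, including the 12 fits that each left out a library. The median log2 difference of the group moved most for age in the libraries labelled transgenic, from 0.12 to -0.14 without the 10-month transgenic 3 library; over the libraries left out in turn it ranged from -0.14 to 0.29. The ranges were -0.16 to 0.24 for genotype at 10 months, -0.11 to 0.03 for genotype at 3 months, -0.13 to 0.27 for the interaction and -0.11 to 0.16 for age in control libraries. The replicate numbers did not pair the samples (correlations of deviations between -0.123 and 0.00551). A replicate block cannot move the medians, since each group holds every replicate number once. The results with it follow for genotype at 10 months, genotype at 3 months, the interaction, age in control libraries and age in libraries labelled transgenic. With the block 0 subunit genes passed the adjusted threshold, and the all-gene calls were 0, 0, 0, 0 and 1 in place of 1, 4, 5, 3 and 2. At an unadjusted p under 0.05 there were 3, 0, 1, 2 and 4 of 76 subunit genes, in place of 2 each. Of all genes tested these shares were 3.74%, 3.04%, 3.02%, 4.21% and 4.35% with the block.

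Without the 10-month control 1, transgenic 2 and transgenic 3 libraries, the medians were 0.08, -0.03, 0.12, -0.11 and -0.01 in the same order (all genes 0.09, 0.02, 0.09, 0.04 and 0.14), and 56, 10, 35, 18 and 77 of 10157 genes passed, with 1 library left in the 10-month transgenic group and assumed to vary like the others. With only the 6 libraries of an age, 0 genes passed at 10 months and 14 at 3 months. The causes were not tested. Absolute depth is unknown, so no detection floor was set for the genes listed at 0, and the sign of each of the 5 group medians changed with the library left out.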
